A study of Homo sapiens with 6 samples.

Results

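Cholesterol and fatty acid homeostasis was examined through 38 genes, chosen by symbol from the 26485 genes counted in the THP1 libraries. THP1 is an established human acute myeloid leukemia (AML) cell line of monocytic character. The chosen genes cover sterol synthesis in 2 stages (7 and 11 genes), the regulators of the sterol regulatory element-binding proteins (SREBPs; 5 genes), sterol uptake, transport and storage (5 genes), the liver X receptors (LXRs) and sterol efflux (4 genes), and fatty acid synthesis (6 genes). Cells were exposed for 6 h to Withaferin A (WFA), a plant steroidal lactone, or to its solvent DMSO, with 3 libraries of each group from separate experiments. The labels give the WFA concentration as 1 mM, whereas the study's methods give 1 μM for these THP1 expression data. Its figure captions for them also give 1 μM, and the counts themselves hold no concentration. All 6 libraries come from the same unmodified line, so the values describe 1 line at 1 time and 1 labelled concentration, and RNA only. Reads summed to between 11006035 and 13872810 per library. Of the 8 monocytic markers the summed level was 2300 to 2830 CPM (read counts scaled to library size) with DMSO and 2140 to 2900 CPM with WFA, most of it from LYZ (1380 to 2090 CPM). Of these markers CD33, CSF1R and CD14 were called lower with WFA, CD68 and CSF3R higher, and LYZ, ITGAM and FCGR1A neither. CD33 had 69.4 to 77.2 CPM with DMSO and 37.9 to 46.8 CPM with WFA. The part of such shifts in the homeostasis gene results was not tested. T cell, erythroid and epithelial marker lists stayed below 1 CPM in sum in each library, with CD3E at no more than 1 count and HBB and ALAS2 at 0 in each library. On the B cell list, whose sum was 1.95 to 4.42 CPM, the most counted gene was PAX5.

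Cells keep the level of membrane cholesterol within narrow limits. When endoplasmic reticulum sterol is scarce, the escort protein SCAP carries the SREBP transcription factors to the Golgi, where proteases release the active part that switches on genes of sterol and fatty acid synthesis and of lipoprotein uptake. When sterol is plentiful, INSIG proteins hold SCAP and SREBP back in the endoplasmic reticulum. Oxysterols, which form as sterol accumulates, activate the LXRs NR1H2 and NR1H3, which raise the efflux transporters ABCA1 and ABCG1 and the ubiquitin ligase MYLIP. In macrophages and their monocytic relatives this balance is of particular note, because these cells take up lipoproteins and cell debris and hand the cholesterol on.

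SREBPs bind the sterol regulatory element, usually beside sites for the factors NF-Y and Sp1, and so the promoter sequence of each gene was read from RefSeq (build GRCh38.p14). Windows of 300 bases, from 250 before to 50 after each start site, were found for 33 of the 38 genes. The table held none for ACAT2, FDFT1, SQLE, ABCG1 and FASN. Several genes have more than 1 start site, so the 33 genes had 48 windows, and a gene was counted when any of its windows held a match on either strand. All 27305 genes with a window had 35116 windows. The number of windows per gene was not matched between these sets, and more windows give more room for a match. The 4 stretches of 120 bases printed here lie just before the first base of each gene in GENCODE 29 and run 5′ to 3′ on the strand of the gene. SREBF2 is shown because it was the only gene of the 33 with a sterol regulatory element match, and ABCA1 stands for the efflux genes. HSD17B7 and INSIG1 were picked after their values were seen, as the genes with the smallest p-values among those with a CCAAT box. Capitals mark the sterol regulatory element and the CCAAT box (ATTGG on the other strand), and in ABCA1 the GGGCGG box.
SREBF2, chr22:41832959-41833078, plus strand: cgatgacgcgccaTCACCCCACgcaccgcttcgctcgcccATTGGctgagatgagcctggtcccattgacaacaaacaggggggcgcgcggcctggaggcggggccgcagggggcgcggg
HSD17B7, chr1:162790582-162790701, plus strand: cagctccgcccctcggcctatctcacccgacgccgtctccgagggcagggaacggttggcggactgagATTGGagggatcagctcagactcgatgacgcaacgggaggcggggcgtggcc
INSIG1, chr7:155297656-155297775, plus strand: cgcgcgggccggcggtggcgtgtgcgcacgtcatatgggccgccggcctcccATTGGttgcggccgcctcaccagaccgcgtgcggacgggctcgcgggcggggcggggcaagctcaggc
ABCA1, chr9:104928238-104928357, minus strand: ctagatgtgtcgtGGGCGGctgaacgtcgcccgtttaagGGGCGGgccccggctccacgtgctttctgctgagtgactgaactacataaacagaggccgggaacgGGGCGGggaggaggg

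The sterol regulatory element TCACNCCAC was found in 1 of the 33 genes, SREBF2, against 1.39% of all 27305 genes with a window and 1.47% of the 9602 of them that were tested for expression. With the exact letters TCACCCCAC the match in SREBF2 remained and the share of all genes was 0.535%. None of the 15 sterol synthesis genes with a window held the element in these letters. Other spellings of it were not searched, so a missing match does not show that a promoter lacks a sterol regulatory element. The CCAAT box, bound by NF-Y, was in 13 of those 15 sterol synthesis genes (86.7%) and in 23 of the 33 genes (69.7%), against 39.7% of all genes and 43.2% of the tested ones. Its share was 72.7% among the 22 genes that rose with WFA and 63.6% among the other 11. The Sp1 box GGGCGG was in 97% of the 33 genes, against 76.4% of tested genes. For the antioxidant response element core TGACNNNGC the share was 18.2% of the 33 genes and 19.6% of tested genes. The LXR element known as DR4, searched in 1 fixed spelling with no mismatch allowed, matched none of the 33 genes and 0.0732% of all genes. Looser forms of it were not searched, so a missing match does not show that a window lacks an LXR element. These are matches of letters and were not tested for binding.

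**Figure D1:**
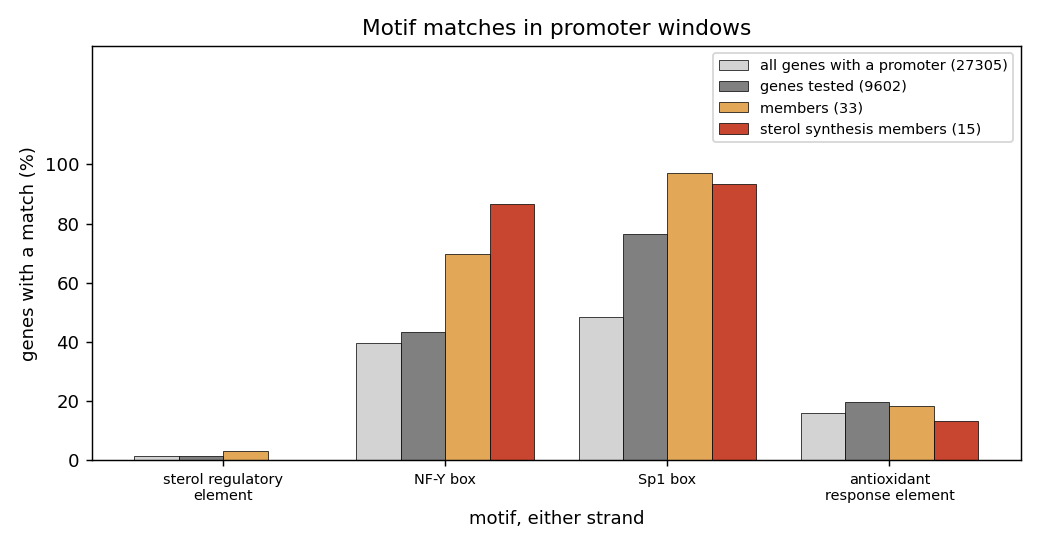
Share of genes (%) whose promoter windows hold each motif on either strand, for all genes with a window (27305), genes tested for expression (9602), the homeostasis genes (33) and the sterol synthesis genes among them (15). The CCAAT box (NF-Y box) stands at 86.7% in sterol synthesis genes against 43.2% of tested genes, while the sterol regulatory element in these letters is at 0% in the sterol synthesis genes.

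Most of the homeostasis genes were higher with WFA, among them 15 of the 18 sterol synthesis genes. In edgeR's quasi-likelihood test, 37 of the 38 genes had enough counts to be tested and 25 of them (67.6%) were higher with WFA at an adjusted p under 0.05, where 25.8% of all 12854 tested genes were higher. The 38 genes were chosen with earlier results of these data known, so this contrast is a description and not an unbiased comparison. Lower expression was called for 3 (8.11%), namely MYLIP, ABCA1 and ACLY, against 24.7% of all tested genes. For 9 genes neither direction was called. The median log2 change of the 37 genes was 0.61, against 0.02 over all tested genes, and it was 0.47, 0.54 and 0.75 in the pairs of same-numbered libraries. All 3 WFA libraries lay above all 3 DMSO libraries for 25 genes, as they did for 29.6% of all tested genes. They lay below for MYLIP and ACLY, the 2 genes of the 37, against 28.5% of all tested genes. A rise of more than 2-fold was called for 8 genes, namely HSD17B7, MVD, NPC1, INSIG1, CYP51A1, MSMO1, LPIN1 and STARD4, where 8.11% of all tested genes rose that far. None had a log2 change below -1 in edgeR's fit or in DESeq2's, whatever its p. In RNA from bulk cells, fewer cells that express a gene and less of its RNA per cell cannot be told apart. An exact permutation test of 3 libraries against 3 cannot give a p below 0.1, so the tests rest on edgeR's pooled estimate of spread.

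**Figure D2:**
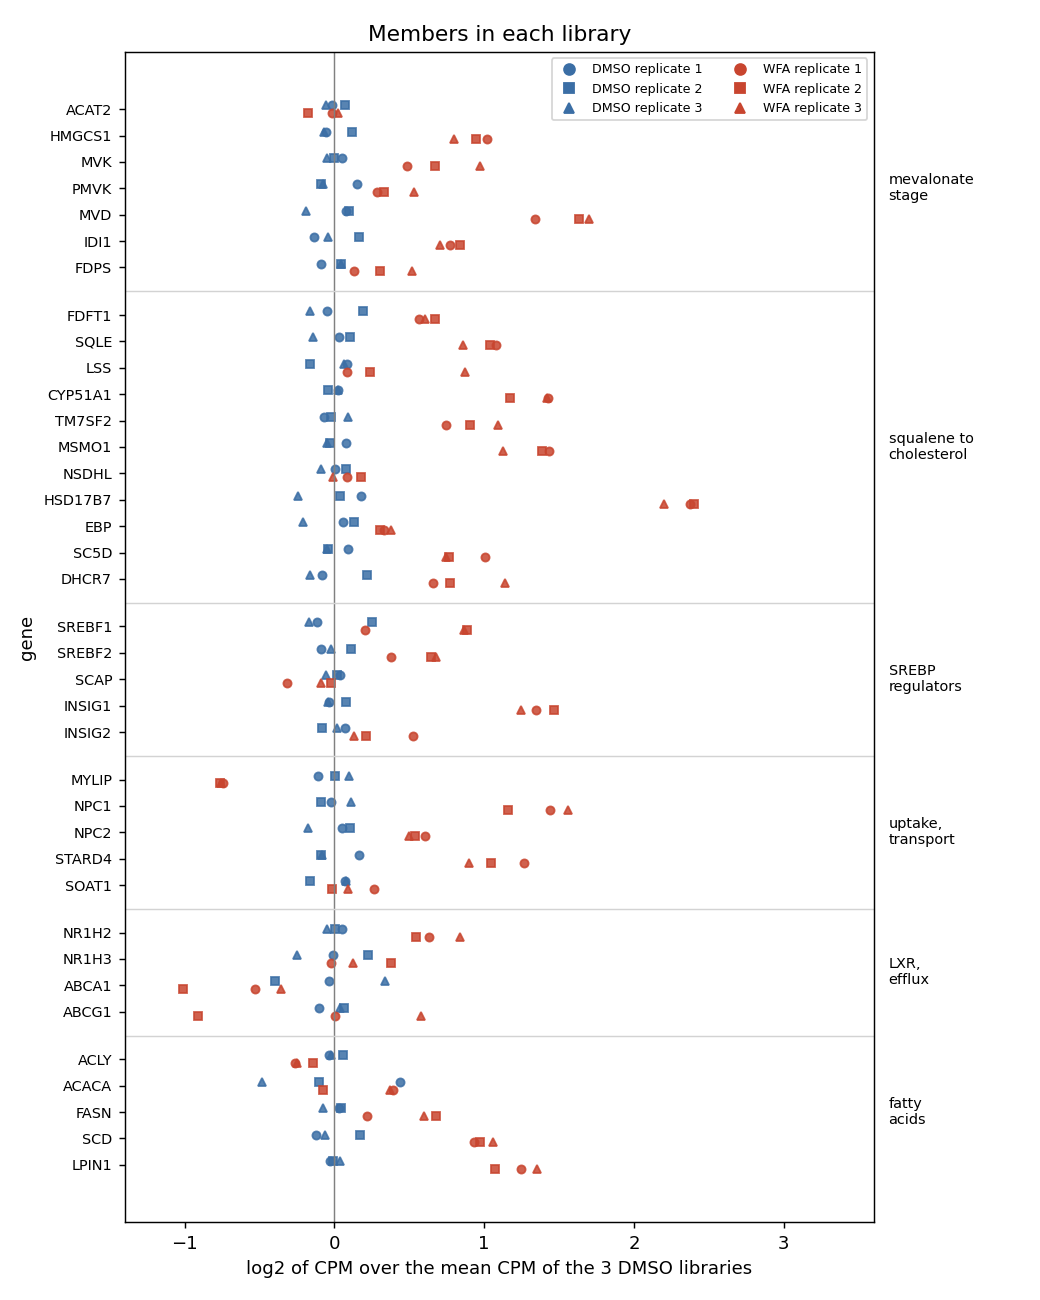
Each of the 37 tested genes (vertical axis, in 6 classes) in each library, as log2 of its CPM over the mean CPM of the 3 DMSO libraries (horizontal axis), with DMSO in blue, WFA in red and the shape giving the replicate number. For 25 genes the 3 red points lie to the right of all blue ones, HSD17B7 farthest, and for MYLIP and ACLY they lie to the left.

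The early, mevalonate stage of sterol synthesis turns acetyl-CoA into farnesyl diphosphate, which also feeds ubiquinone, dolichol and protein prenylation. WFA raised 6 of its 7 genes (85.7%, against 25.8% of all tested genes), with a median log2 change of 0.71. HMGCS1, which makes the HMG-CoA on which the pathway's rate-limiting enzyme acts, had 71.5, 80.5 and 70.9 CPM in the 3 DMSO libraries and 150, 143 and 129 CPM in the 3 WFA libraries. The groups did not overlap, and its log2 change, WFA over DMSO, was 0.92 (SE, the standard error, 0.09, adjusted p = 9.74e-07 in edgeR's test with Benjamini-Hochberg adjustment). MVD, the decarboxylase that makes isopentenyl diphosphate, changed most in this stage. It was counted at 10.2, 10.3 and 8.49 CPM with DMSO and 24.5, 29.9 and 31.4 CPM with WFA. That is a log2 change of 1.56 (SE 0.14, edgeR adjusted p = 3.72e-07), or 2.95-fold. IDI1, the isomerase that follows, had 43.1, 52.9 and 45.9 CPM with DMSO against 80.9, 84.6 and 77.1 CPM with WFA. Its log2 change was 0.78 (SE 0.10, edgeR adjusted p = 1.05e-05), again without overlap.

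Both kinases of the stage rose too. MVK, mevalonate kinase, was a weakly expressed gene, at 3.94, 3.79 and 3.66 CPM with DMSO and 5.30, 6.03 and 7.44 CPM with WFA (44 to 80 counts per library). PMVK, which adds the next phosphate, had 33.5, 28.3 and 28.6 CPM with DMSO and 36.7, 37.98 and 43.5 CPM with WFA. Their groups did not overlap, with a log2 change of 0.71 (edgeR adjusted p = 0.00716) for MVK and 0.38 (edgeR adjusted p = 0.00941) for PMVK. FDPS, which joins the isoprene units into farnesyl diphosphate, was the most abundant gene of the stage per length, at 58.2 CPM per kb of exon with DMSO and 73.1 with WFA. It had 203, 223 and 223 CPM with DMSO and 237, 267 and 310 CPM with WFA, a log2 change of 0.33 (edgeR adjusted p = 0.0137). That call was lost when DMSO replicate 1 was left out (0.28, edgeR adjusted p = 0.0715) and when WFA replicate 3 was left out (0.22, edgeR adjusted p = 0.067). PMVK likewise passed the threshold in all but 1 of these fits, with 0.33 (edgeR adjusted p = 0.0504) without DMSO replicate 2. FDPS has 8 named pseudogenes in GENCODE 29, and how the counts treat reads that fit several of them is not given in the sources used here.

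ACAT2, the cytosolic thiolase that starts the pathway, was the only gene of this stage that was not called. Its values were 71.1, 75.4 and 69.1 CPM with DMSO and 70.9, 63.5 and 73.2 CPM with WFA, and the groups overlapped. The log2 change was -0.06 (95% interval -0.25 to 0.14, edgeR adjusted p = 0.63). Of the exon bases of ACAT2, 52.3% are shared with other genes, among them TCP1 on the other strand, whose own log2 change was 0.94 (edgeR adjusted p = 1.52e-06). The library kit does not mark strand, so reads from this shared stretch cannot be told apart.

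The later stage, from squalene to cholesterol, gave the highest median of the 6 classes, 0.87, with 9 of 11 genes higher (81.8%). None of the 18 genes of both stages was lower in edgeR's test, at an unadjusted p under 0.05 either, or in DESeq2's. Of all tested genes, edgeR's test called 25.8% higher and 24.7% lower at an adjusted p under 0.05. Summed over the later stage, the genes had 645, 687 and 594 CPM with DMSO and 1216, 1184 and 1156.5 CPM with WFA. The ratio of group means was 1.85. For the mevalonate stage that ratio was 1.40. HSD17B7, the ketoreductase that acts when the methyl groups of lanosterol are removed, rose more than any other of the 37 genes. It had 9.56, 8.68 and 7.16 CPM with DMSO and 43.8, 44.7 and 39.0 CPM with WFA. This amounts to a log2 change of 2.32 (SE 0.13, edgeR adjusted p = 3.09e-09), or 5.00-fold, with no overlap between groups. Its near-identical pseudogene HSD17B7P2 moved the same way, from 12, 18 and 14 counts to 31, 47 and 41 counts (log2 change 1.56, edgeR adjusted p = 0.000397), and reads could be split between the 2 copies. The pseudogene held far fewer counts than HSD17B7 itself, which had 86 to 136 with DMSO and 419 to 556 with WFA.

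Among genes for the demethylation of lanosterol, RNA of several but not all was higher with WFA. CYP51A1, the lanosterol demethylase, had 75.6, 72.2 and 75.8 CPM with DMSO and 200, 168 and 199 CPM with WFA. Its log2 change was 1.34 (SE 0.09, edgeR adjusted p = 2.24e-08), or 2.53-fold. In GENCODE 29, 83.2% of its exon bases are shared with other gene models, and CYP51A1-AS1, the one of them that the count table also lists by name, had at most 5 counts in any library. MSMO1, the methylsterol oxidase of the same series of steps, went from 28.9, 26.8 and 26.4 CPM to 73.9, 71.6 and 59.7 CPM. That was a log2 change of 1.32 (SE 0.11, edgeR adjusted p = 1.18e-07). NSDHL, the dehydrogenase that works between MSMO1 and HSD17B7, was not called. It had 24.6, 25.8 and 23.1 CPM with DMSO and 26.0, 27.7 and 24.4 CPM with WFA, with overlapping groups and a log2 change of 0.09 (95% interval -0.15 to 0.32, edgeR adjusted p = 0.536). TM7SF2, a sterol reductase, had 5.90, 6.07 and 6.58 CPM with DMSO and 10.4, 11.6 and 13.2 CPM with WFA, a log2 change of 0.92 (edgeR adjusted p = 0.000206).

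FDFT1, squalene synthase, commits farnesyl diphosphate to sterols, and SQLE, the epoxidase that follows it, is a second rate-controlling step. FDFT1 went from 227, 268 and 211 CPM to 348, 376 and 358 CPM, a log2 change of 0.61 (SE 0.10, edgeR adjusted p = 0.000104). SQLE went from 141, 148 and 125 CPM to 291, 283 and 250 CPM, a log2 change of 1.00 (SE 0.09, edgeR adjusted p = 6.76e-07). Neither gene overlapped between groups, and per length they were the most abundant genes of the stage, at 45.2 and 32.03 CPM per kb with DMSO. LSS, the cyclase that makes lanosterol, was counted only 27 to 47 times per library. Its levels of 2.53, 2.13 and 2.50 CPM with DMSO and 2.53, 2.82 and 4.37 CPM with WFA overlapped, and the interval of its log2 change reached from -0.13 to 0.98 (edgeR adjusted p = 0.187).

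RNA of the 3 genes chosen from the last steps from zymosterol to cholesterol was higher with WFA. EBP, the sterol isomerase, had 31.8, 33.6 and 26.6 CPM with DMSO and 38.6, 37.9 and 39.9 CPM with WFA. SC5D, the desaturase, had 80.3, 73.4 and 73.0 CPM with DMSO and 152, 128 and 127 CPM with WFA. DHCR7, which reduces 7-dehydrocholesterol to cholesterol, had 18.0, 22.1 and 17.0 CPM with DMSO and 30.0, 32.5 and 41.8 CPM with WFA. None of the 3 genes overlapped between groups, and the log2 changes were 0.34 for EBP (edgeR adjusted p = 0.0177), 0.84 for SC5D (edgeR adjusted p = 3.19e-06) and 0.87 for DHCR7 (edgeR adjusted p = 0.000134). The call for EBP was lost without DMSO replicate 3 (0.24, edgeR adjusted p = 0.0851).

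**Figure D3:**
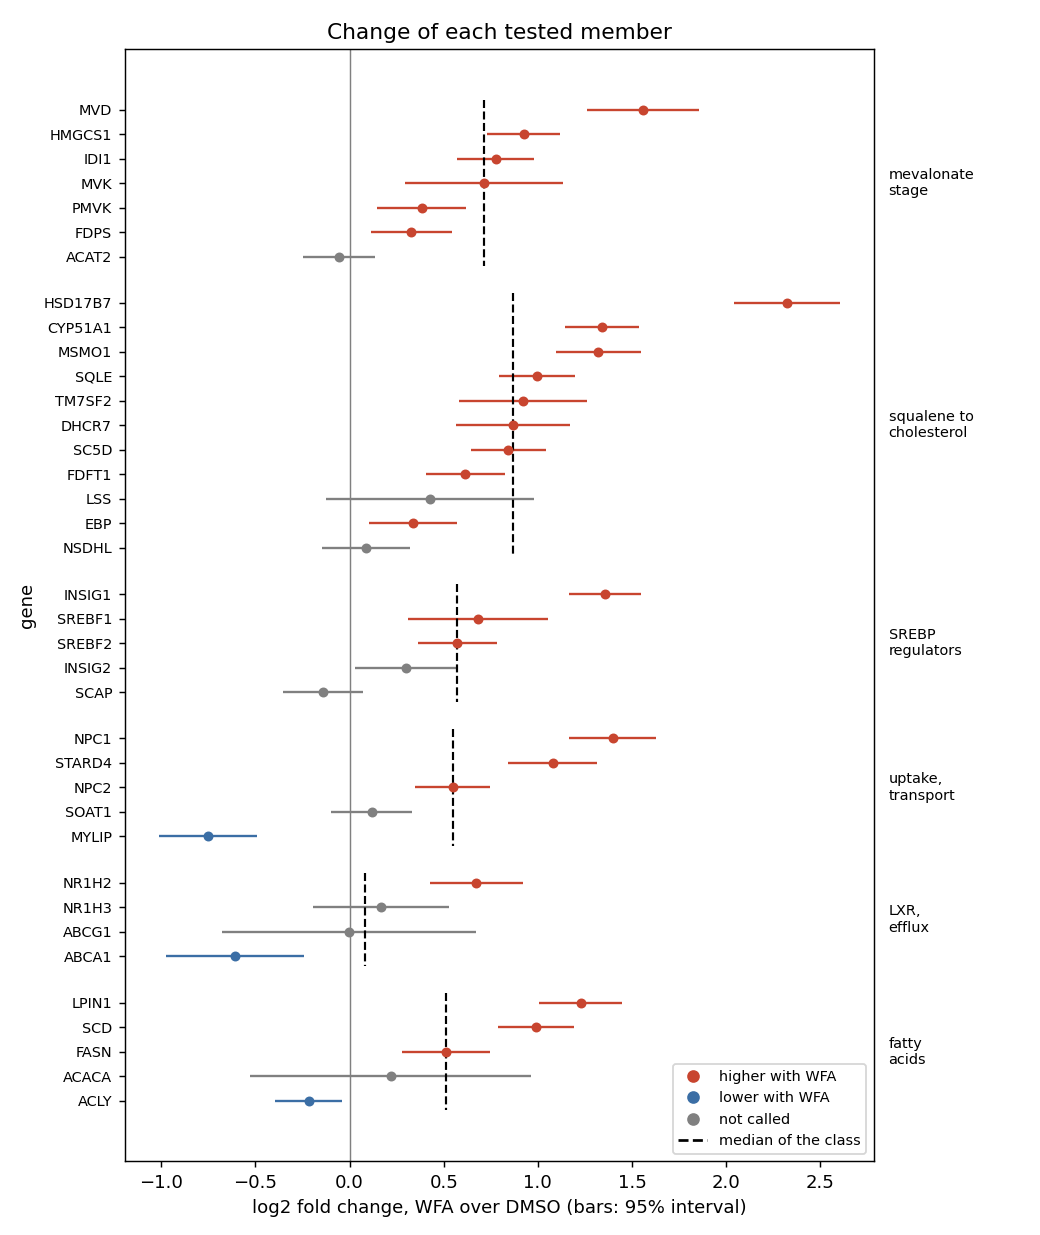
Log2 change of each tested gene, WFA over DMSO, with its 95% interval (horizontal bars) and the median of its class (dashed line), coloured by the call in edgeR's test. The medians stand at 0.71 and 0.87 for the stages of sterol synthesis and at 0.08 for LXRs and efflux, and HSD17B7 lies farthest to the right at 2.32. INSIG2 is drawn as not called because its adjusted p is over the threshold, although its unadjusted interval leaves out 0.

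Among the SREBP regulators 3 of 5 genes rose (60%, against 25.8% of all tested genes), with a median of 0.57. None was lower in edgeR's test (0 at an unadjusted p under 0.05, and 0 in DESeq2's), against 24.7% of all tested genes. INSIG1, which retains SCAP in the endoplasmic reticulum and is itself a target of SREBP, had 63.2, 68.4 and 62.8 CPM with DMSO and 165, 179 and 154 CPM with WFA. The groups stood well apart, with a log2 change of 1.36 (SE 0.09, edgeR adjusted p = 1.59e-08), or 2.56-fold. INSIG2, its close relative, had 22.3, 20.04 and 21.5 CPM with DMSO and 30.6, 24.6 and 23.2 CPM with WFA. Its groups did not overlap either, but the log2 change of 0.30 missed the threshold (95% interval 0.03 to 0.57, edgeR adjusted p = 0.0602), and it passed with the replicate number as a block (0.30, edgeR adjusted p = 0.0165). That fit has 2 residual degrees of freedom instead of 4 and infinite prior degrees of freedom instead of 10.8. Its call thus rests on a spread shared by all genes. The intervals of the 2 INSIG genes do not overlap, with 1.17 as the lower bound for INSIG1. The difference between them was not tested.

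SREBF2 encodes the SREBP that acts mainly on sterol genes, and SREBF1 the forms that act more on fatty acid genes. SREBF2 had 205, 236 and 215 CPM with DMSO and 284, 342 and 349 CPM with WFA, with no overlap and a log2 change of 0.57 (SE 0.10, edgeR adjusted p = 0.000204). SREBF1 had 15.0, 19.3 and 14.5 CPM with DMSO and 18.7, 30.1 and 29.6 CPM with WFA. Here WFA replicate 1 lay below DMSO replicate 2, so the groups overlapped, although SREBF1 was called higher with a log2 change of 0.68 (SE 0.17, edgeR adjusted p = 0.00424). Per length, SREBF2 stood at 28.9 CPM per kb with DMSO and SREBF1 at 2.02 CPM per kb. SCAP, the escort, had 51.2, 50.5 and 47.9 CPM with DMSO and 39.99, 49.0 and 46.8 CPM with WFA, a log2 change of -0.14 (95% interval -0.35 to 0.07, edgeR adjusted p = 0.259). The groups of SCAP overlapped.

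In uptake, transport and storage 3 of 5 genes rose (60%) and 1 fell (20%), with a median of 0.55. Over all tested genes 25.8% rose and 24.7% fell, so the share that fell is near that of all genes. NPC1, the membrane protein that moves cholesterol out of lysosomes, had 40.8, 39.0 and 44.9 CPM with DMSO and 113, 92.9 and 122.7 CPM with WFA. It rose by a log2 change of 1.40 (SE 0.11, edgeR adjusted p = 8.91e-08), or 2.63-fold. NPC2, the soluble lysosomal protein that hands cholesterol to NPC1, had 59.9, 62.2 and 51.2 CPM with DMSO and 87.6, 84.004 and 81.6 CPM with WFA. Its log2 change was 0.55 (SE 0.09, edgeR adjusted p = 0.000198), and neither gene overlapped between groups. STARD4, a soluble carrier that moves sterol between membranes and is a known SREBP target, had 42.7, 35.7 and 35.9 CPM with DMSO and 91.6, 78.8 and 71.0 CPM with WFA. That was a rise of 1.08 on the log2 scale (SE 0.11, edgeR adjusted p = 1.62e-06).

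MYLIP, which marks lipoprotein receptors for degradation and is raised by LXRs, was the clearest fall among the 37 genes. It had 20.1, 21.8 and 23.2 CPM with DMSO and 13.0, 12.8 and 12.8 CPM with WFA. All WFA libraries lay below all DMSO libraries, with a log2 change of -0.75 (SE 0.12, edgeR adjusted p = 0.000122). SOAT1, which esterifies cholesterol for storage, had 75.3, 64.0 and 75.6 CPM with DMSO and 86.2, 70.6 and 76.2 CPM with WFA. The groups of SOAT1 overlapped, and its log2 change was 0.12 (95% interval -0.10 to 0.33, edgeR adjusted p = 0.35).

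Of the 4 LXR and efflux genes 1 was higher (25%) and 1 lower (25%) with WFA, which is near the shares of all tested genes (25.8% and 24.7%). Their median log2 change was 0.08, and their summed level of 99.2, 85.4 and 117 CPM with DMSO overlapped that of 89.1, 75.6 and 102 CPM with WFA, although the WFA library was the lower in each same-numbered pair. ABCA1, which exports cholesterol to apolipoprotein acceptors, had 68.5, 53.5 and 89.0 CPM with DMSO and 48.6, 34.9 and 54.9 CPM with WFA. WFA replicate 3 lay above DMSO replicate 2, so the groups overlapped, while within each same-numbered pair the WFA library was the lower, with log2 ratios of -0.49, -0.61 and -0.69. The log2 change of -0.61 was called (SE 0.17, edgeR adjusted p = 0.00796). It was not called without DMSO replicate 3 (-0.41, edgeR adjusted p = 0.0554), nor in DESeq2's Wald test (-0.63, DESeq2 adjusted p = 0.0605). With the replicate number as a block ABCA1 was called (-0.60, edgeR adjusted p = 3.2e-10), on a spread shared by all genes. ABCG1, the partner transporter that exports to lipoprotein particles, had only 14 to 34 counts per library. At 1.97, 2.21 and 2.16 CPM with DMSO and 2.12, 1.13 and 3.16 CPM with WFA its interval reached from -0.68 to 0.67, so no direction can be given.

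Of the receptors themselves, NR1H2 was called and NR1H3 was not. NR1H2 (LXR beta), which most tissues express, had 19.6, 19.0 and 18.3 CPM with DMSO and 29.4, 27.7 and 33.9 CPM with WFA, without overlap and with a log2 change of 0.67 (SE 0.12, edgeR adjusted p = 0.00021). NR1H3 (LXR alpha), more abundant in liver and macrophages, had 9.07, 10.7 and 7.66 CPM with DMSO and 8.98, 11.8 and 9.95 CPM with WFA. Its groups overlapped, with a log2 change of 0.17 (95% interval -0.19 to 0.53, edgeR adjusted p = 0.43). Whether the receptors differ from each other in response was not tested.

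**Figure D4:**
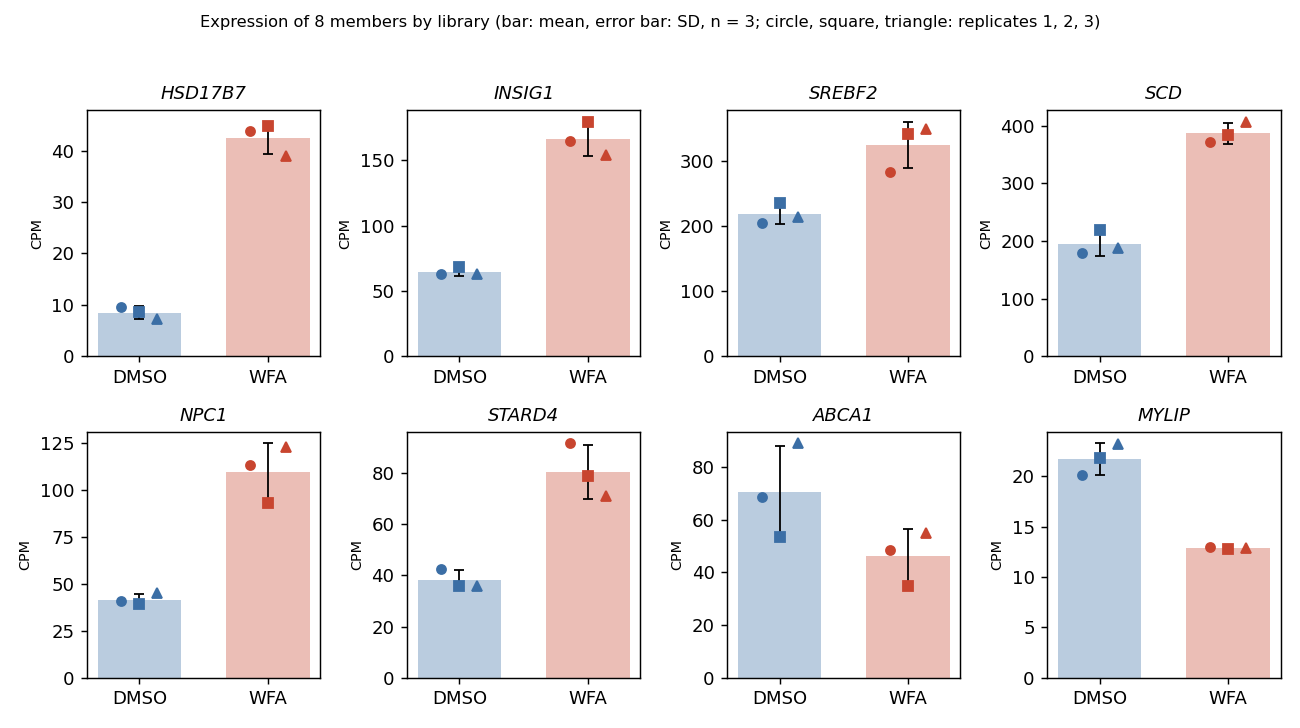
CPM of 8 genes in the DMSO and WFA libraries, with bars for the mean, error bars for the SD (n = 3) and a point for each library (circle, square and triangle for replicates 1, 2 and 3). HSD17B7, INSIG1, SREBF2, SCD, NPC1 and STARD4 are higher in each WFA library than in any DMSO library, MYLIP is lower in each, and the points of ABCA1 overlap.

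Of the 5 tested fatty acid synthesis genes 3 rose (60%) and 1 fell (20%), against 25.8% and 24.7% of all tested genes. Their median was 0.51. SCD, the desaturase that makes oleate from stearate, was the most abundant of the risers in this class per length, at 36.4 CPM per kb with DMSO and 72.2 with WFA. It had 179, 219 and 187 CPM with DMSO and 371, 383 and 407 CPM with WFA, a log2 change of 0.99 (SE 0.10, edgeR adjusted p = 7.8e-07). FASN, fatty acid synthase, had 222, 224 and 207 CPM with DMSO and 253, 348 and 330 CPM with WFA, and its log2 change of 0.51 (SE 0.11, edgeR adjusted p = 0.00124) held a smaller value in pair 1 (0.19) than in pairs 2 and 3 (0.63 and 0.67). LPIN1, a phosphatidate phosphatase of glycerolipid synthesis and a known SREBP target, rose most in the class. Its values of 24.2, 24.5 and 25.3 CPM with DMSO and 58.5, 51.9 and 63.1 CPM with WFA gave a log2 change of 1.23 (SE 0.10, edgeR adjusted p = 2.05e-07). The groups of these 3 genes did not overlap.

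The remaining genes of the class were ACLY, called lower, ACACA, not called, and ELOVL6, not tested. ACLY, which makes cytosolic acetyl-CoA for both fatty acids and sterols, was the most abundant of the 38 genes per length in the DMSO libraries, at 67.1 CPM per kb, and stood at 57.7 CPM per kb with WFA. It had 342, 364 and 344 CPM with DMSO and 292, 318 and 294 CPM with WFA, so all WFA libraries lay below all DMSO libraries. Its log2 change of -0.22 was just past the threshold (SE 0.08, edgeR adjusted p = 0.0421), and leaving out any library but WFA replicate 2 took it over, to adjusted p-values of up to 0.118 in edgeR. ACACA, acetyl-CoA carboxylase, had only 8 to 18 counts per library and a log2 change of 0.22 with an interval of -0.53 to 0.96, so no direction can be given. ELOVL6, an elongase of saturated fatty acids, never exceeded 1 count and was not tested. A count of 0 allows up to 0.211 to 0.279 CPM in these libraries, counting error only.

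The same pathways hold other genes, and 166 of them on 8 lists were found in the count table, of which 136 could be tested. Of these, 53 were higher and 24 lower with WFA, with a median log2 change of 0.12. As shares these are 39% higher and 17.6% lower, where 25.8% and 24.7% of all tested genes were called, and the share called higher ran from 28.6% to 60.9% over the lists. The medians of the single lists ran from -0.09 to 0.51, with 2 of the 8 below the 0.02 of all tested genes. Among 8 other sterol synthesis genes 3 were higher and 1 lower, with a median of 0.21. TMEM97, an endoplasmic reticulum protein that binds NPC1, rose with 0.85 (edgeR adjusted p = 5.01e-06), while DHDDS, which takes isoprene units toward dolichol instead of sterol, fell with -0.76 (edgeR adjusted p = 4.76e-05).

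SREBP processing and sterol-regulated degradation was split, with 4 genes higher (40%) and 4 lower (40%) of 10 and a median of -0.09. Over all tested genes 25.8% were higher and 24.7% lower. ERLIN1, an endoplasmic reticulum scaffold that helps to degrade sterol-regulated proteins, fell from 89.0 ± 3.52 to 23.4 ± 2.46 CPM (mean ± SD of 3 libraries). Its log2 change was -1.93 (edgeR adjusted p = 1.73e-09). SYVN1, a ubiquitin ligase of the endoplasmic reticulum, rose with 0.82 (edgeR adjusted p = 5.93e-06). The proteases that release SREBPs, MBTPS1 and MBTPS2, had log2 changes of 0.01 and -0.18 and were not called.

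Other sterol transport genes gave 8 higher and 3 lower of 21, with a median of 0.11. The lysosomal receptor SCARB2 rose with 0.71 (edgeR adjusted p = 1.66e-05). The lipid exchange protein OSBPL5 fell with -1.65 (edgeR adjusted p = 9.07e-06), and the lipoprotein receptor VLDLR fell with -0.44 (edgeR adjusted p = 0.00106). Partners and targets of LXR were 4 higher (33.3%) and 2 lower (16.7%) of 12, with a median of 0.10. For all tested genes these shares were 25.8% and 24.7%. PLIN2, which coats lipid droplets, rose with 0.91 (edgeR adjusted p = 7.09e-06) and the phosphodiesterase SMPDL3A with 0.83 (edgeR adjusted p = 0.000243). RXRA, the receptor that pairs with both LXRs, fell with -0.58 (edgeR adjusted p = 0.000107).

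Among oxysterol and bile acid genes 4 were higher (50%) and 2 lower (25%) of 8, with a median of 0.51. Of all tested genes 25.8% were higher and 24.7% lower, so the share lower was near that of all genes. CYP27A1, which makes 27-hydroxycholesterol, rose from 3.81 ± 1.06 to 18.6 ± 2.12 CPM (mean ± SD of 3 libraries), a log2 change of 2.28 (edgeR adjusted p = 1.8e-07). CYP39A1, an oxysterol hydroxylase, had 2, 2 and 0 counts in the DMSO libraries and 130, 77 and 96 in the WFA libraries. The DMSO libraries are thus at or under a floor of 3 counts per library, where no fold is given, and all WFA libraries are far above it (edgeR adjusted p = 2.96e-08). GPR183, a receptor for oxysterols, fell with -1.65 (edgeR adjusted p = 2.01e-06), and the sulfate donor enzyme PAPSS1 fell with -0.98 (edgeR adjusted p = 4.06e-06).

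The other fatty acid synthesis, elongation and desaturation genes had the highest share of calls upward among the 8 lists, with 14 higher (60.9%) and 2 lower of 23 and a median of 0.47. ACSS2, which makes cytosolic acetyl-CoA from acetate, and SLC25A1, which carries citrate out of mitochondria for ACLY, were both called higher, with 0.85 and 0.47 on the log2 scale, and were picked out after their values were seen. ME1, the malic enzyme that supplies NADPH, rose from 31.6 ± 3.03 to 185 ± 19.7 CPM (mean ± SD of 3 libraries), a log2 change of 2.54 (edgeR adjusted p = 2.09e-10). The elongases ELOVL5 and ELOVL4 rose with 1.24 (edgeR adjusted p = 5.32e-08) and 2.61 (edgeR adjusted p = 8.1e-07). The genes called lower were MCAT (-0.86, edgeR adjusted p = 0.000199) and MECR (-0.54, edgeR adjusted p = 0.00241), which both act in the separate mitochondrial pathway. Fatty acid activation and oxidation lay at the level of all genes, with 10 higher and 7 lower of 35 and a median of -0.02. There PPARGC1B, a coactivator of oxidative genes, fell with -1.62 (edgeR adjusted p = 5.49e-07) and CD36, a fatty acid and lipoprotein scavenger receptor, fell from 87.0 ± 9.28 to 39.5 ± 7.25 CPM (mean ± SD of 3 libraries, -1.13 on the log2 scale, edgeR adjusted p = 3.09e-06). PDK4, which turns cells from glucose toward fatty acid use, rose with 1.38 (edgeR adjusted p = 3.26e-06). Glycerolipid and lipid droplet genes were 6 higher (31.6%) and 3 lower (15.8%) of 19, with a median of 0.15. For all tested genes these shares were 25.8% and 24.7%. The acyltransferase AGPAT5 fell with -1.28 (edgeR adjusted p = 1.43e-07) and the droplet protein CIDEB with -0.69 (edgeR adjusted p = 0.000368). LPIN2, the paralog of LPIN1, rose with 0.72 (edgeR adjusted p = 1.22e-05), and the droplet coat PLIN3 rose with 0.59 (edgeR adjusted p = 0.000334).

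**Figure D5:**
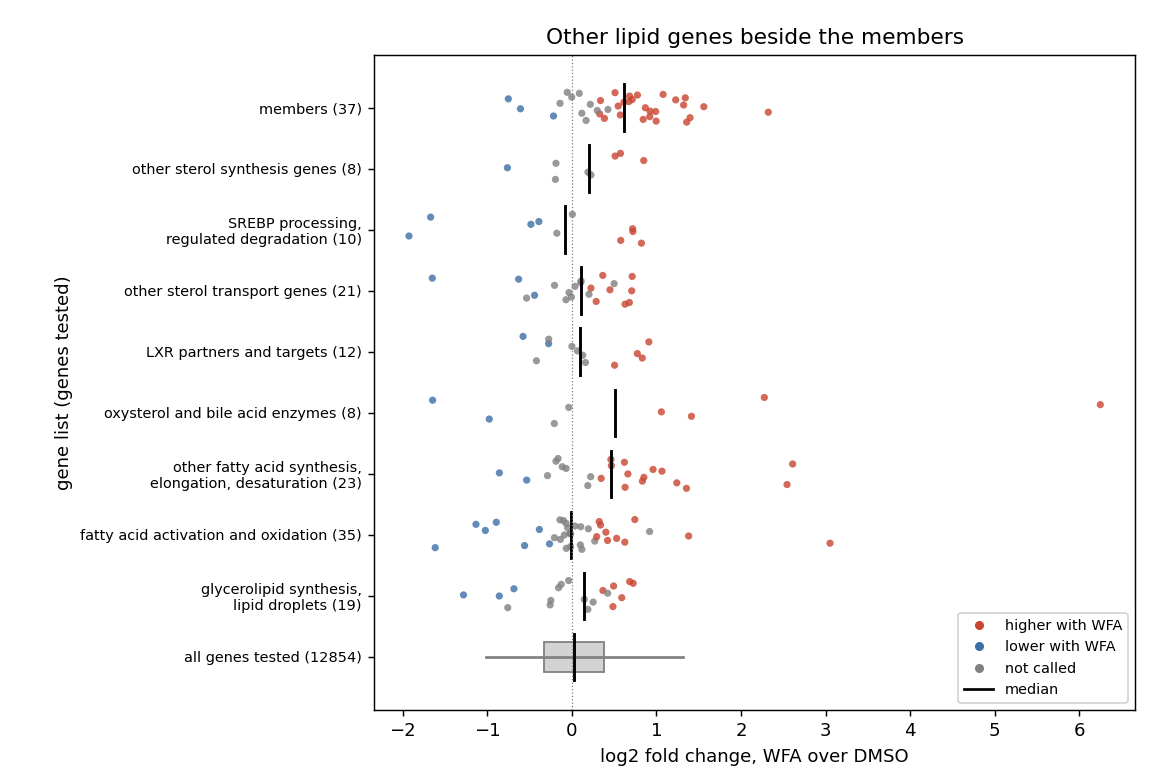
Log2 change (WFA over DMSO) of each tested gene among the homeostasis genes (members) and on the 8 other lists, coloured by call, with the median of each as a black line and, for all 12854 tested genes, a box from the 25th to the 75th percentile with whiskers to the 5th and 95th. The medians stand at 0.61 for the homeostasis genes, 0.47 for other fatty acid synthesis and 0.02 for all genes. The point at the far right is CYP39A1, whose place depends on how counts near 0 are treated.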

How the data were processed

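The authors sequenced total RNA from THP1 cells (TruSeq RNA v2, which does not mark strand) and deposited raw counts of reads per gene for 26485 genes, with scaled counts and their own comparison (fold changes, p-values), which were not used. The submitters' processing notes name bcl2fastq 2.19, Trimmomatic, Bowtie2, Picard, featureCounts, DESeq2 and the build hg38. The annotation and the handling of multiply mapped reads are not given in the sources used here.

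Counts were tested in edgeR 4.0.16 (R 4.3.3) with TMM normalization, filterByExpr at a minimum count of 10 and the two-sided quasi-likelihood test, with Benjamini-Hochberg adjustment over all 12854 tested genes and a threshold of 0.05. CPM used the TMM-scaled library size. Pair values are log2 ratios of CPM with 0.25 added. The fit was tested on simulated data. Alternatives were a replicate block, DESeq2 1.42.0, other scalings and filters, and leaving out each library. Libraries of a group differed by more than sampling noise (chi-square per gene 5.92 to 10.9), and each counted as 1 replicate. Same-numbered libraries deviated together (correlations 0.217, 0.333 and 0.245, against -0.256 to 0.00369 for other pairings). Each number stands for 1 of 3 experiments, so the numbers pair the samples. The main test compared the groups without this pairing, which among the fits only the replicate block took into account.

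The genes and the 8 lists were chosen with earlier results of these data known. ERG28, MARCHF6, SPRING1 and UFD1 were not found under these symbols. From each list, up to 3 genes with the smallest p and up to 2 called against the list's majority are named, except some genes that are not reported here. MBTPS1, MBTPS2 and the promoters of HSD17B7 and INSIG1 were added after values were seen. Gene positions and shared exon bases come from GENCODE 29.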

Additional observations from a re-analysis of the deposited data

How the results depend on the processing

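Over 13 alternatives no called homeostasis gene changed direction. Of those not called, ACAT2 (-0.06) was at 0.003 without WFA replicate 2, and ABCG1 (-0.002) lay between -0.37 and 0.31 with a library left out and at 0.003 with upper-quartile normalization. In all, 461 of 478 gene results kept their side of the threshold, with 14 losing and 3 gaining a call. Of the gained calls 1 came with the replicate block, 1 at a minimum count of 50 and 1 without WFA replicate 3. With the replicate block 26 genes were higher and 3 lower, against 25 and 3, as INSIG2 was gained. Over all tested genes the block gave 3877 higher and 3708 lower against 3311 and 3178, and its residual degrees of freedom were 2 instead of 4. It changed no other call among these genes. With total counts in place of TMM 23 genes were higher, since FDPS (0.24, edgeR adjusted p = 0.0612) and EBP (0.25, edgeR adjusted p = 0.059) lost their calls, and the median of all genes moved from 0.02 to -0.06. Leaving out 1 library at a time, 24 to 25 genes were higher. The number lower was 1 to 3, and 1 without DMSO replicate 3. Of the LXR and efflux genes 0 were lower with DESeq2, and 0 to 1 with a library left out, through ABCA1. For fatty acid synthesis 0 were lower at a minimum count of 50, and 0 to 1 with a library left out, through ACLY, which had 0.0511 as its edgeR adjusted p at that minimum. Counts of 8 to 47 per library limit LSS, ABCG1 and ACACA.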
